A study of Mus musculus with 15 samples.

Results

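Efhd1 and Mcub encode mitochondrial proteins that bind or gate calcium, and they were followed across RNA sequencing libraries of the mouse uterine epithelium. They were chosen by name, and the deposited tables give these 2 names to 3 Ensembl genes among 28269 entries. Efhd1 is ENSMUSG00000026255. The name Mcub stands beside 2 identifiers. ENSMUSG00000027994 is Mcub in the GENCODE M21 annotation, and ENSMUSG00000029378 is Areg there, the gene of the growth factor amphiregulin. RefSeq lists Mcub among the synonyms of Areg, which encodes no mitochondrial calcium protein. The 3 genes are called Efhd1, Mcub and Areg below, by identifier, and the label of a mitochondrial calcium pair fits only the first 2 of them. The values that led to the choice were the falls of Efhd1 and of the entry ENSMUSG00000029378 in the luminal epithelium of E-OEX animals, and the change in sign of the gland to lumen difference of Efhd1. The gene that carried the fall under the name Mcub was therefore Areg.

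Day 4 epithelium was sampled from the surface of the uterine cavity (luminal epithelium, LE) and from the uterine glands (glandular epithelium, GE). Wild-type (WT) mice gave 3 LE and 3 GE libraries, titled Ctrl. Mice labelled as overexpressing Notch1, a receptor of cell-to-cell signalling, gave 3 LE and 3 GE libraries titled E-OEX and 3 LE libraries titled U-OEx. The labels do not spell out E-OEX or U-OEx, and they name no promoter, Cre driver, strain or age. They also do not say whether replicates came from separate animals, so p-values measure the spread between these libraries, which may be technical. Notch1 itself was analysed only in U-OEx LE, where its scaled read count was 2913, 3524 and 2789, so these values do not check the labels of the other groups. Each library held between 1980800 and 14981505 reads in its listed genes, and the wild-type and E-OEX tables list a selected part of the genes only. The gland markers Foxa2, Cxcl15, Spink1, Lif, Ttr and Calca summed to 14949 to 22877 in WT GE and to 82.1 to 123 in WT LE on a scale common to all libraries, which fits the labels. In the luminal libraries of the Notch1-overexpressing mice, called mutant below, the same sum was 1179, 277 and 152 for E-OEX and 1259 to 1786 for U-OEx. The sum does not stand for each marker. Spink1 and Ttr had no reads in any U-OEx LE library, and Spink1 and Calca had none in any E-OEX LE library.

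Mitochondria take up calcium through the uniporter, a channel in the inner membrane whose pore is formed by Mcu. Mcub is a paralogue of Mcu that joins the same complex and lowers its conductance. Efhd1, also called mitocalcin, is a calcium-binding protein with EF-hand motifs at the inner membrane. Amphiregulin is a ligand of the epidermal growth factor receptor and is known as a progesterone-regulated gene of the mouse luminal epithelium around implantation.

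Efhd1 lies on chromosome 1 at chr1:87264363-87310839 on the plus strand of GRCm38, with 3 annotated transcripts. Mcub lies at chr3:129914960-129970206 on the minus strand, with 4 transcripts. Areg lies at chr5:91139599-91148432 on the plus strand, with 1 transcript. The promoters are shown because 2 of these loci share a name while lying on different chromosomes. Each RefSeq promoter of GRCm38.p6 is given 5′ to 3′ on the strand of its gene, from 250 bases before to 50 bases after the annotated start. The windows are chr1:87264103-87264402 (plus) for Efhd1, chr3:129970157-129970456 (minus) for Mcub and chr5:91139349-91139648 (plus) for Areg. Capitals mark 2 kinds of motif: the core recognised by RBPJ, the DNA-binding partner of active Notch, and the cAMP response element.

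Efhd1 promoter: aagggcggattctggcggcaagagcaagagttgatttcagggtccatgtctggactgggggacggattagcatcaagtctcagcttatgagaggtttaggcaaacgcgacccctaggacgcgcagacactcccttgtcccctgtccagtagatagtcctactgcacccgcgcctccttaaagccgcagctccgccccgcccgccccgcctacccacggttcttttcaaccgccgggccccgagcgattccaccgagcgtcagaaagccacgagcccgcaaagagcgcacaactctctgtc

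Mcub promoter: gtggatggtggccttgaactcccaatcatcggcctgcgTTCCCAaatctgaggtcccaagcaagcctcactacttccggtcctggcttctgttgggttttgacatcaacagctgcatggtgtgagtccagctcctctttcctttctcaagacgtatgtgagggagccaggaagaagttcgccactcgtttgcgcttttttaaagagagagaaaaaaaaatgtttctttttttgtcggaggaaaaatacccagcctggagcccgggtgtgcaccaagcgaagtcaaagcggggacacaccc

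Areg promoter: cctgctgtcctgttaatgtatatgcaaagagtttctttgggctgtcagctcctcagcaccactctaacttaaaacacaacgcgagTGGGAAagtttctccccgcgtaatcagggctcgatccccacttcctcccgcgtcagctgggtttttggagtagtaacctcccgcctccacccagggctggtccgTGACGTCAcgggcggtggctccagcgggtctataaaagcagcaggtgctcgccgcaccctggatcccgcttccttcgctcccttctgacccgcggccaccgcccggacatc

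The Efhd1 window held no RBPJ core (TGGGAA, searched on both strands). The Mcub window held 1, read as TTCCCA on the gene's strand with its first base at position -212 from the start. The Areg window held 1 at position -165 and also 1 cAMP response element (TGACGTCA) at position -61. Among 32851 promoter windows of the same length, 25.6% held the RBPJ core and 1.79% held the cAMP response element. The E-box CACGTG (7.15% of windows), the HES/HEY site CACGCG (9.27%), the progesterone receptor site AGAACA (19.0%) and the palindromic estrogen response element (0.0700%) matched in none of the 3 windows. These matches describe letters and not binding.

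Efhd1 was a gene of the wild-type lumen. Its deposited scaled read count (reads divided by 1 factor per library), the unit of all levels below unless stated, was 1702, 2936 and 2768 in the 3 WT LE libraries (2469 ± 669, SD, n = 3). In E-OEX LE it was 9.13, 6.36 and 24.8 (13.4 ± 9.96, SD, n = 3), from 7 to 23 reads per library. Every E-OEX LE library lay far below every WT LE library.

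In WT GE the Efhd1 values were 38.9, 25.6 and 33.7 (32.8 ± 6.72, SD, n = 3), and in E-OEX GE they were 38.1, 52.9 and 65.6 (52.2 ± 13.8, SD, n = 3). The GE groups were both low. In U-OEx LE there were 0, 0 and 2 reads (scaled read counts 0, 0 and 1.92), at or under the floor of 3 reads per library used here as the limit of detection. Efhd1 was therefore not detectable at this depth in U-OEx LE.

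Mcub was higher in the lumen than in the glands in wild type and in E-OEX. It was at 179, 848 and 316 in WT LE (448 ± 353, SD, n = 3), with replicate 2 far above the others. In E-OEX LE it was at 277, 90.8 and 61.5 (143 ± 117, SD, n = 3), and replicate 1 lay within the WT LE range. The U-OEx LE libraries were close together at 195, 153 and 166 (171 ± 21.4, SD, n = 3).

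The glands held little Mcub. The WT GE values were 38.0, 38.9 and 34.6 (37.1 ± 2.24, SD, n = 3). The E-OEX GE values were 9.01, 8.05 and 13.1 (10.1 ± 2.69, SD, n = 3), from 7 to 14 reads. The GE groups did not overlap.

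Areg was abundant in the wild-type lumen and present in the glands. It was at 1187, 1254 and 539 in WT LE (993 ± 395, SD, n = 3) and at 278, 281 and 176 in WT GE (245 ± 59.5, SD, n = 3). In E-OEX LE it was at 19.2, 2.72 and 18.3 (13.4 ± 9.27, SD, n = 3), from 3 to 21 reads. All E-OEX LE libraries lay below all wild-type libraries of either epithelium.

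In E-OEX GE, Areg was at 97.1, 341 and 163 (201 ± 126, SD, n = 3), a range that contained that of WT GE. The U-OEx LE values were 11.0, 0.889 and 5.76 (5.89 ± 5.07, SD, n = 3), from 1 to 12 reads. The U-OEx and E-OEX luminal ranges overlapped. In bulk RNA, fewer cells of a type and less RNA per cell cannot be told apart.

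**Figure D1:**
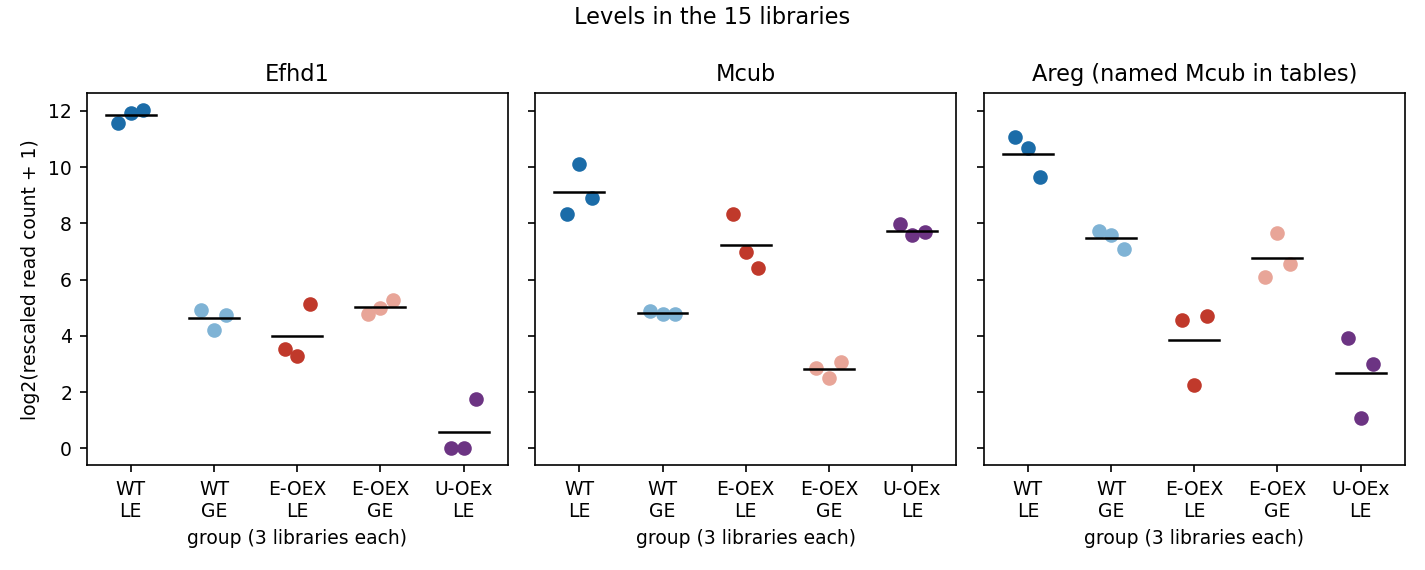
Each point is 1 library and each bar the mean of 3. The y axis is log2(rescaled read count + 1), with the 15 libraries rescaled together by TMM over the 2670 genes listed for all of them and used for that scale. Efhd1 stands high in WT LE only, Mcub stands above the glands in all luminal groups, and Areg is low in both mutant luminal groups.

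The deposited tables of the genotypes may have been scaled separately, so the order of the groups was read after rescaling all 15 libraries together by TMM, which aligns the bulk of the shared genes. Efhd1 was highest in WT LE, with a mean 116-fold above the next group. E-OEX GE, WT GE and E-OEX LE followed, each overlapping its neighbour, and U-OEx LE was lowest without overlap. For Mcub the order was WT LE, U-OEx LE, E-OEX LE, WT GE and E-OEX GE. Only U-OEx LE and E-OEX LE overlapped among the neighbours of that order, and the step from the lowest luminal to the highest glandular mean was 6.53-fold. For Areg the order was WT LE, WT GE, E-OEX GE, E-OEX LE and U-OEx LE. The glandular groups overlapped each other, as did the mutant luminal groups, and a 7.04-fold step lay between those pairs.

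Per kilobase of exon, the only scale on which genes can be set against each other, WT LE held 1162 ± 315 for Efhd1, 817 ± 325 for Areg and 340 ± 268 for Mcub (SD, n = 3, scaled read count per kb). In WT GE the order was different, with Areg at 202 ± 48.9, Mcub at 28.2 ± 1.70 and Efhd1 at 15.4 ± 3.16 (SD, n = 3). In U-OEx LE, Mcub led with 130 ± 16.3, and Areg was at 4.85 ± 4.17 (SD, n = 3). Efhd1 thus went from the highest of the 3 genes in the wild-type lumen to under the floor in U-OEx.

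The luminal contrast of E-OEX with wild type is the one that chose the genes, and its values are a description. Folds here are ratios of group means, and log2 fold changes are differences of mean log2(value + 1), so these can differ in size. On reads rescaled for this comparison alone, Efhd1 was 207-fold lower in E-OEX LE (log2 difference -7.78), the lowest of 2451 genes. Areg was 86.8-fold lower (log2 difference -6.55), the next in that order. Mcub was 3.57-fold lower (log2 difference -1.84), which stood at place 257 from the lowest, and its groups overlapped. For 2 of the 3 genes, Efhd1 and Areg, all E-OEX LE libraries lay below all WT LE libraries, as they did for 14.8% of all genes tested, and nothing is read from that share. Over all genes the median log2 difference was -0.08. limma, a linear model that moderates each gene's variance, called 272 of 2451 genes (11.1%) at a p adjusted over all genes of under 0.05, 132 of them higher (5.39%) and 140 lower (5.71%). On the deposited scale the split of calls was 152 higher and 103 lower.

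The glandular contrast did not choose Mcub or Areg. Its libraries entered the change in the gland to lumen difference that chose Efhd1, so for Efhd1 the result is not independent of that choice. The question was whether the glands of E-OEX animals differed from wild-type glands as the lumen did. Mcub was the 1 gene of the 3 that fell there, against 24.1% of the 2708 genes tested that were called (14% called lower). Its mean was 5.20-fold lower in E-OEX GE, and the fitted log2 fold change was -2.26 (SE 0.37) at a limma adjusted p of 0.00234. The rescaled values were 47.6, 44.8 and 42.3 in WT GE and 8.57, 7.16 and 10.2 in E-OEX GE, so that all E-OEX libraries were lower, as held for 21.8% of genes.

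Efhd1 did not pass the test in the glands (log2 fold change 0.18, SE 0.35, limma adjusted p = 0.777), and its sign turned to -0.018 without WT GE replicate 2. Areg was at -0.92 (SE 0.43, limma adjusted p = 0.155). It passed without E-OEX GE replicate 2, the library with the highest Areg, at -1.41 (limma adjusted p = 0.0228, with a range of 0.0228 to 0.458 when each library was left out). The gene with the small luminal difference was thus the one that passed in the glands.

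The median log2 difference of all genes in the glands was 0.05 after rescaling and 0.51 on the deposited scale. The 653 calls split into 275 higher (10.2% of genes) and 378 lower after rescaling, and the deposited scale gave 566 higher and 210 lower. Mcub was lower on both scales, at -1.81 on the deposited one (limma adjusted p = 0.00859, within a range of 5.40e-05 to 0.00859 over the alternatives that keep all libraries).

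Cell type markers also moved between the glandular groups, where 10.2% of all genes were called higher and 14% lower. Of 5 smooth muscle markers listed, 4 were higher in E-OEX GE (Acta2, Myh11, Cnn1 and Myl9), and their summed rescaled value was 11832 to 17647 against 3768 to 6477 in WT GE. Of 6 gland markers listed, 5 were lower in E-OEX GE (Spink1, Ttr, Calca, Lif and Cxcl15), with a sum of 4038 to 5310 against 25329 to 36814. The 6 stroma markers listed summed to 64742 to 79747 in E-OEX GE and 41257 to 114610 in WT GE. Of the general epithelial markers Krt19 was higher and Cdh1 lower in E-OEX GE. The part of these cell types in the fall of Mcub was not tested.

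**Figure D2:**
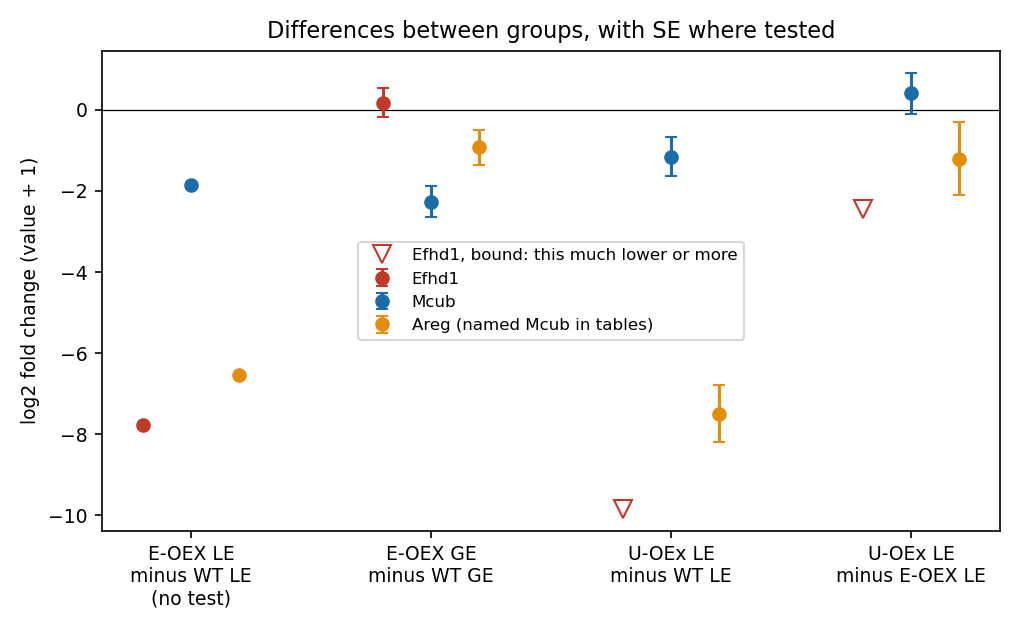
The y axis is the log2 fold change of values rescaled together for each comparison, with a standard error where a test was made. Open triangles mark Efhd1 with U-OEx LE taken at 3 reads per library and the other group at its measured mean. They cover the floor only and not the spread of the other group. Efhd1 and Areg lie far below 0 in both luminal comparisons with wild type, and Mcub lies lowest of the 3 in the glandular one.

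The U-OEx lumen gave another luminal comparison with wild type. It used the same WT LE libraries as the contrast that chose the genes, so the comparisons are not independent and their values are given side by side. Efhd1 was at least 919-fold lower in U-OEx LE than in WT LE (limma adjusted p = 4.65e-06). That bound takes U-OEx LE at 3 reads in each library and WT LE at its measured mean. Areg was 176-fold lower (log2 fold change -7.50, SE 0.70, limma adjusted p = 7.26e-05). Efhd1 and Areg were 2 of 3 called, both lower, against 56.4% of 5651 genes called in either direction and 27.2% called lower.

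Their places from the lowest were 5 for Efhd1 and 31 for Areg. In the same order Mcub stood at place 1637. Its log2 fold change was -1.15 (SE 0.48, limma adjusted p = 0.0733), a 2.64-fold difference in means that did not pass. The rescaled Mcub values in U-OEx LE all lay below those in WT LE, a property shared by 30.6% of genes. Mcub passed with edgeR (-1.40, adjusted p = 0.0432), with DESeq2 (-1.50, adjusted p = 0.0126) and with limma after quantile normalization (-1.56, adjusted p = 0.0230), and over all such alternatives the adjusted p ran from 0.0126 to 0.110. Without WT LE replicate 1 it passed with limma (-1.59, adjusted p = 0.0151), and without WT LE replicate 2, the library highest in Mcub, the log2 fold change was -0.59.

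The WT LE libraries differed in stromal transcripts. The summed stroma markers (Vim, Col1a1, Col1a2, Col3a1, Pdgfra and Hand2) were at 653, 10026 and 3638 on the scale of all 15 libraries, in the order of replicates 1 to 3. Mcub on that scale was 323, 1111 and 472, so the library with the most stroma transcripts also held the most Mcub. In the glands, which held 25638 to 67642 of the stroma sum in WT GE, Mcub was at 26.3 to 28.9. Their part in the spread of Mcub was not tested.

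Luminal markers moved in the mutant lumens as well. Of the luminal markers Calb1, Lpar3 and Wnt7a, Calb1 fell from 35964 ± 17708 in WT LE to 4683 ± 4090 in E-OEX LE and Lpar3 from 7275 ± 1434 to 1563 ± 1135 (SD, n = 3, rescaled), while Wnt7a did not pass there (limma adjusted p = 0.545). In U-OEx LE against WT LE all 3 of these fell, Calb1 with a log2 fold change of -7.07, Lpar3 with -4.74 and Wnt7a with -1.11. Klf5, another luminal marker tested there, did not pass (-0.61, limma adjusted p = 0.0538). The general epithelial sum of Cdh1 and Krt19 overlapped between WT LE (43895 to 82171) and E-OEX LE (46425 to 71077), and was 27572 to 42486 in U-OEx LE. Their part in the falls of Efhd1 and Areg was not tested.

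Markers of other cell types were also called in U-OEx LE against WT LE. Of all genes in that comparison 29.2% were called higher and 27.2% lower. Of 6 gland markers tested, 3 were higher in U-OEx LE, Foxa2 at 5.62, Lif at 3.87 and Cxcl15 at 3.77 (log2 fold change). Spink1 was lower at -2.74, and the other gland markers did not pass. Of 3 immune markers tested, 2 were higher in U-OEx LE, Adgre1 at 2.09 and Lyz2 at 1.56. Of 6 endothelial markers 2 were higher, Pecam1 at 1.78 and Tek at 3.12, and of 5 smooth muscle markers 3 were lower, Des at -2.86, Cnn1 at -2.17 and Myl9 at -3.03. In E-OEX LE against WT LE, 1 of 5 smooth muscle markers was lower, Myl9 (5.71% of all genes were called lower). The summed smooth muscle markers were low in all luminal groups beside the glands, at 140 to 421 in WT LE, 23.7 to 80.0 in E-OEX LE and 114 to 210 in U-OEx LE on the scale of all 15 libraries. The part of these cell types in the values of Efhd1, Mcub and Areg was not tested.

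The mutant lumens were then set against each other, to ask whether U-OEx and E-OEX differed. Here too E-OEX LE served in the contrast that chose the genes. Efhd1 was lower in U-OEx LE (limma adjusted p = 0.0233). With U-OEx LE at 3 reads per library and E-OEX LE at its mean, the difference was 5.42-fold. That figure covers the floor only and not the spread in E-OEX LE (9.05, 7.71 and 28.65, rescaled). All U-OEx LE libraries lay below those of E-OEX LE, as held for 18.1% of genes. Efhd1 was 1 of 3 called, against 14.6% of 4071 genes (7.74% called lower). The call was lost without E-OEX LE replicate 3 or without any of the 3 U-OEx LE libraries, with adjusted p from 0.0623 to 0.109, and it rests on 40 reads in E-OEX LE against 2 in U-OEx LE.

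Between the mutant lumens 2 of 5 endothelial markers were higher in U-OEx LE (Pecam1 at 2.89 and Emcn at 1.92). So was 1 of 6 smooth muscle markers (Acta2 at 3.22). The luminal markers Calb1 (-4.13, limma adjusted p = 0.00712) and Lpar3 (-2.59, limma adjusted p = 0.0140) were lower, and Wnt7a and Met did not pass. Of all genes, 14.6% were called in either direction and 7.74% as lower. The part of these markers' cell types in the call of Efhd1 was not tested. Areg and Mcub did not pass there. Areg was at -1.20 (SE 0.90, limma adjusted p = 0.387). Mcub was at 0.41 (SE 0.51, limma adjusted p = 0.621), and at -0.016 without E-OEX LE replicate 3.

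Within a genotype, the step from lumen to gland separated the 3 genes. These values are a description, because the WT and E-OEX tables list genes selected for that step: the smallest absolute log2 ratio between the epithelia was 1.0001 in the WT tables and 0.9979 in the E-OEX tables. In wild type all 3 genes were higher in the lumen, Efhd1 by 75.4-fold, Mcub by 12.1-fold and Areg by 4.05-fold. In E-OEX, Efhd1 was 3.88-fold and Areg 14.9-fold higher in the glands, while Mcub stayed 14.2-fold higher in the lumen. On this deposited scale the LE and GE libraries overlapped in none of these pairs. On the scale common to all 15 libraries, Efhd1 in E-OEX did overlap, with 8.82 to 34.0 in LE and 26.2 to 37.5 in GE. On that scale the epithelial sum of Cdh1 and Krt19 was 7034 to 7610 in WT GE and 43895 to 82171 in WT LE. In E-OEX it was 8007 to 12188 in GE and 46425 to 71077 in LE. The stroma sum was 25638 to 67642 in WT GE and 653 to 10026 in WT LE. In E-OEX it was 47608 to 52775 in GE and 531 to 2342 in LE. The part of cell content in the gland to lumen differences was not tested.

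On the log2(mean + 1) scale of the deposited values, the GE minus LE difference of Mcub was -3.56 in wild type and -3.70 in E-OEX. Efhd1 went from -6.19 to 1.88, a change of 8.07 that was second from the highest among 2776 shared genes. Areg went from -2.01 to 3.81, a change of 5.82 at place 10. With reads rescaled by TMM, the differences in wild type and E-OEX were -6.53 and 1.04 for Efhd1, -2.36 and 2.98 for Areg, and -3.88 and -4.40 for Mcub. Single libraries also moved them: Mcub was at -2.71 in wild type without WT LE replicate 2 and at -2.80 in E-OEX without E-OEX LE replicate 1. In E-OEX, Efhd1 was at 2.60 without E-OEX LE replicate 3, and Areg at 3.18 without E-OEX GE replicate 2. Every direction was kept. Of the 912 shared genes higher in the lumen in wild type, 52 (5.70%) were higher in the glands in E-OEX, Efhd1 and Areg among them. Both genes were far lower in E-OEX LE than in WT LE, and neither passed the test between the glandular groups. The luminal fall chose both genes, and the glandular values also entered the choice of Efhd1, so nothing is read from this.

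**Figure D3:**
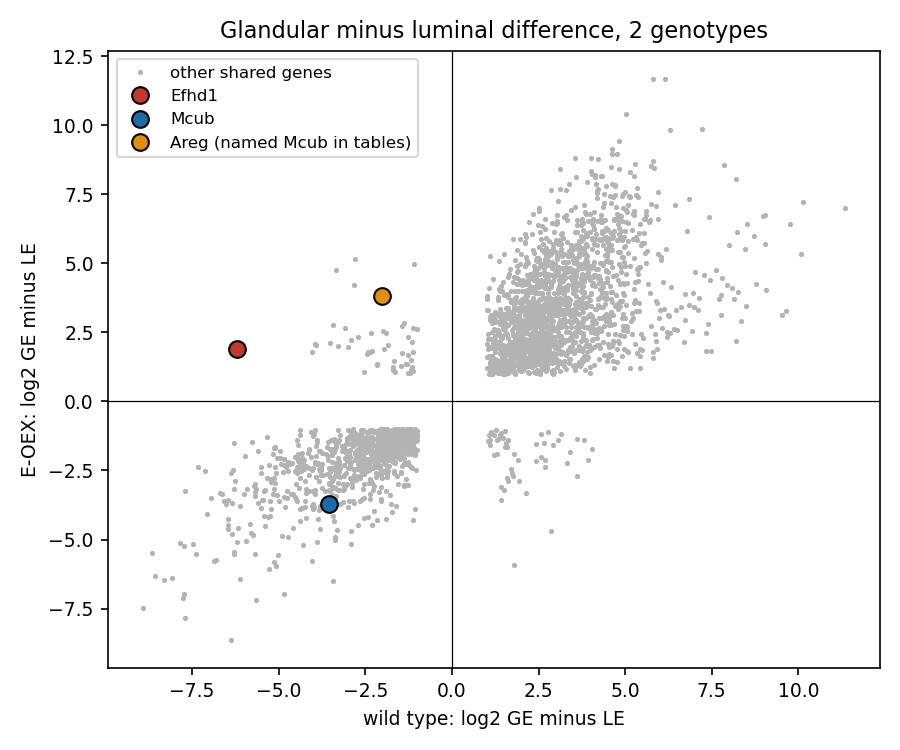
Each point is 1 of 2776 genes listed in both sets of tables, with the log2 GE minus LE difference in wild type on the x axis and in E-OEX on the y axis, from deposited values. The empty bands around 0 come from the selection of listed genes. Efhd1 and Areg lie in the upper left, with the sign reversed (for Efhd1 the E-OEX difference is 1.04 after TMM rescaling), and Mcub lies at about the same difference in both genotypes.

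The other genes of mitochondrial calcium handling were taken from a list of 30 that includes Efhd1 and Mcub. The WT tables list 6 of them. Besides Efhd1 and Mcub, the higher values were in the lumen for Slc25a24 (2427 ± 426 in LE against 363 ± 72.4 in GE, SD, n = 3), Mcur1 (1914 ± 324 against 856 ± 75.1) and Slc25a25 (1039 ± 515 against 486 ± 29.8). Slc25a23 was higher in the glands (480 ± 70.2 in LE against 1364 ± 178 in GE). Slc25a23, Slc25a24 and Slc25a25 are calcium-regulated carriers of ATP-Mg and phosphate, and Mcur1 is a regulator of the uniporter.

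In U-OEx LE against WT LE, 6 of the 30 were tested: 4 fell (27.2% of all genes fell) and 2 did not pass, with a median log2 fold change of -1.43 against 0.11 for all genes. Of these 6, 5 were listed in wild type as higher in LE, the group they are set against here, and Efhd1 was chosen on a contrast with it. The genes behind the share of all genes include those listed as higher in the glands. Nothing is therefore read from the difference between the shares. Mcur1 fell by 1.75 on the log2 scale (SE 0.25, limma adjusted p = 0.000557), from 2004 ± 522 to 583 ± 27.0 (SD, n = 3, rescaled). Slc25a24 fell by 1.61 (SE 0.24, limma adjusted p = 0.000701) and Slc25a25 was at -1.26 (SE 0.33, limma adjusted p = 0.0111). Slc25a23 was at -0.39 (limma adjusted p = 0.268). Efhd1 was the other gene that fell, and Mcub the other that did not pass.

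Only 3 of the list were tested in each E-OEX comparison with wild type, namely Efhd1, Mcub and Slc25a24. Slc25a24 was at -1.24 in the lumen (limma adjusted p = 0.0759) and at -0.20 in the glands (limma adjusted p = 0.637). Between the mutant lumens 4 were tested, and Efhd1 alone passed. Slc25a13, a carrier of aspartate and glutamate, was at -0.83 there (limma adjusted p = 0.175) and Slc25a24 at -0.64 (limma adjusted p = 0.203). The uniporter pore gene Mcu is listed only in the U-OEx tables.

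The U-OEx tables list all 30 genes, which places Efhd1 and Mcub within that list. Vdac1, the outer membrane channel, was highest with 1013 ± 185 per kb (SD, n = 3), and Efhd2, the closest relative of Efhd1, was next with 958 ± 93.6. Mcub stood at place 15 with 130 ± 16.3 and Mcu at place 18 with 91.4 ± 6.26. Efhd1 was at place 29, above Slc25a41, which had no reads. Efhd2 was thus abundant in the libraries in which Efhd1 was under the floor. It has no value in wild type or E-OEX to set beside this, and the cells it came from were not tested.

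**Figure D4:**
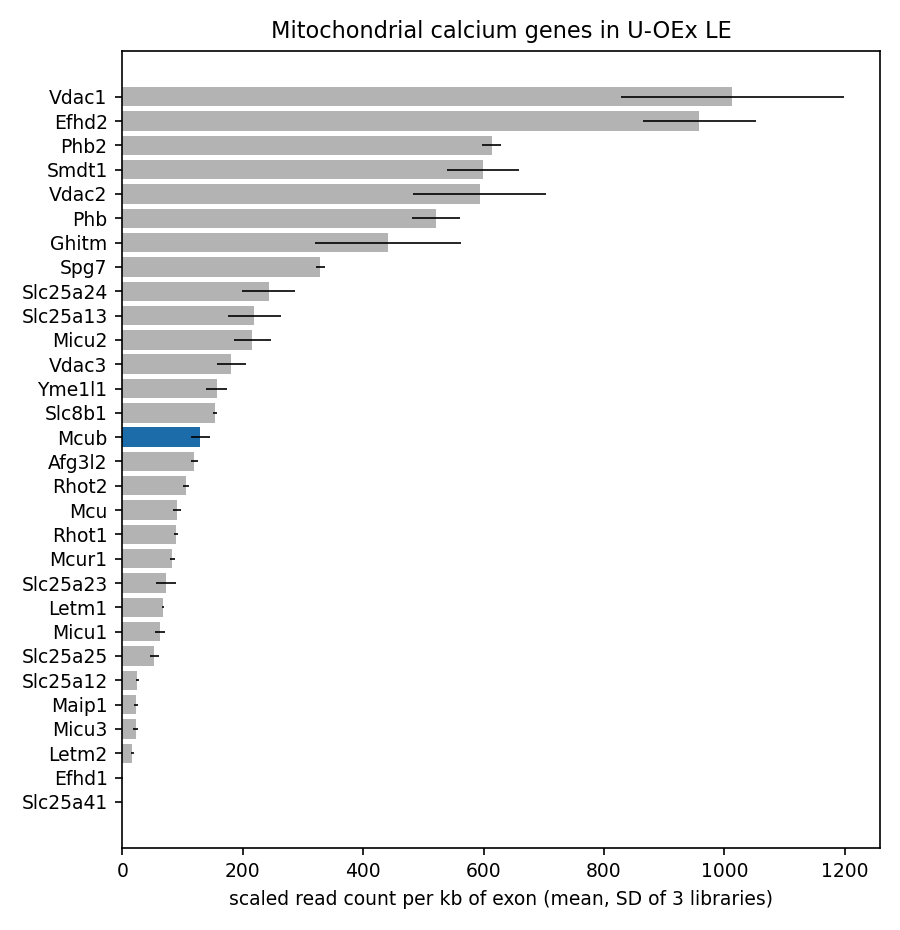
Bars give the mean scaled read count per kilobase of exon in the 3 U-OEx LE libraries and lines the SD. Efhd2 is among the highest of the 30 genes, Mcub (blue) is in the middle and Efhd1 is near 0.

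Calcium genes of the plasma membrane, endoplasmic reticulum and cytosol were read from a second list of 30. In E-OEX LE against WT LE, 1 of 7 rose against 5.39% of all genes (Atp2a3, a pump of the endoplasmic reticulum, with 2.10) and 2 fell against 5.71% (the calbindin gene Calb1 with -3.21 and the Golgi pump gene Atp2c2 with -1.97, as log2 fold changes). In the glands 2 of 7 rose (10.2% of all genes rose), Atp2c2 with 2.89 and the sodium/calcium exchanger gene Slc8a2 with 1.60, and 2 fell (14% of all genes fell), the release channel gene Ryr3 with -2.49 and Atp2a3 with -0.85. In U-OEx LE against WT LE, 4 of 13 rose (29.2% of all genes rose) and 6 fell (27.2% fell). The largest of those were Calb1, also counted above as a luminal marker, at -7.07 (limma adjusted p = 7.50e-06), the store-operated channel gene Orai2 at 6.79 (limma adjusted p = 9.21e-06), the inositol trisphosphate receptor gene Itpr2 at -4.23 (limma adjusted p = 8.73e-06) and the plasma membrane pump gene Atp2b2 at -4.06 (limma adjusted p = 8.29e-05). Between the mutant lumens 3 of 8 fell (7.74% of all genes fell), with Calb1 at -4.13, S100g at -2.70 and Atp2c2 at -1.77. Each of these genes kept its direction on the deposited scale. Of the 13 genes set between U-OEx LE and WT LE, 7 were listed in wild type as higher in GE and 6 as higher in LE. The listing may bear on those counts.

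Another list of 30 held genes of mitochondrial energy supply. In E-OEX LE against WT LE its 3 tested genes were Pdk4 at 2.60 (limma adjusted p = 0.192), Cox4i2 at 2.03 (limma adjusted p = 0.0882) and Ndufa4l2 at 0.31 (limma adjusted p = 0.855). In the glands 1 of 3 rose (10.2% of all genes), Pdk4, which restrains pyruvate dehydrogenase, by 3.41 (limma adjusted p = 0.000169). In U-OEx LE against WT LE, 5 of 7 rose (29.2% of all genes rose) and 1 fell (27.2% fell). The largest were Pdk4 at 3.81, the citrate synthase gene Cs at -2.07 and Cox4i2 at 2.27, and Esrrg rose from 0 reads in every WT LE library to a mean of 11.6. Of those 7 energy genes, 5 were listed in wild type as higher in GE and 2 as higher in LE, so the listing may bear on the counts. Most mitochondrial genes of both lists are outside the WT and E-OEX tables and were not analysed there.

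Likeness of pattern was measured as Pearson's r of log2 values over the 15 libraries, among 2351 genes listed in all tables with a mean of at least 10. The libraries share groups and scaling, so r is a description. Efhd1 was nearest to Cdkn1c (0.97), Ankrd29, Dab2, Fzd5 and Myl3 (0.93). Cdkn1c, a cell cycle inhibitor, had a mean of 3584 in WT LE and of 133 in E-OEX LE. Mcub was nearest to 6430562O15Rik (0.97), Ptprr, Gpat3, Casp1 and Serpinb5 (0.95). Ptprr, a tyrosine phosphatase, had a mean of 3163 in WT LE, 619 in E-OEX LE and 930 in U-OEx LE, and 20.7 and 12.0 in WT GE and E-OEX GE.

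Areg was nearest to Myl3 (0.91), Fez1, Zbtb16, B3galnt1 and Efhd1 (0.89). Between the 3 genes themselves r was 0.89 for Efhd1 and Areg, 0.28 for Efhd1 and Mcub, and 0.03 for Mcub and Areg. Efhd1 and Areg were both chosen for their fall from WT LE to E-OEX LE, and r includes those libraries, so their likeness is fixed in part by the choice and supports nothing.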

How the data were processed

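Per the labels' protocols, RNA came from the Qiagen RNeasy mini plus kit and libraries from the NEBNext Ultra RNA kit. The genome build was GRCm38 (mm10), per the submitters' processing notes; the aligner, counter, annotation and use of strand are not given in the sources used here. The authors' deposited values are scaled read counts, handled as a signal: whole reads divided by 1 factor per library. Reads were recovered from that step, and 100% of values came within 0.01 of a whole read. Per library, 0.756 to 5.09% of reads lay in unannotated entries, which were left out of library sizes and tests. The listed genes held 1980800 to 4797424 reads per wild-type or E-OEX library, whose tables are selected lists, so the full depth is unknown there, and 13541644 to 14981505 per U-OEx library. Floors cover counting error only.

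The recovered reads of genes listed in both tables of a comparison were rescaled by TMM (edgeR 4.0.16) and tested with limma 3.58.1 (R 4.3.3; lmFit, eBayes with trend) on log2(value + 1), for genes with a mean of at least 1, with Benjamini-Hochberg adjustment over all genes tested and a threshold of 0.05. Fold changes on this scale understate those of low genes. TMM assumes that most shared genes are alike, and these are genes selected in at least 1 genotype. Alternatives were edgeR, DESeq2 1.42.0, the deposited scale, quantile normalization, other pseudocounts (0.1 and 5) and filters, a replicate block, and leaving out each library. The limma test was run on simulated data only for the glandular comparison and for U-OEx LE against WT LE. Those data gave every gene the same setting of spread, and nothing is read from them here. No repeat library was found: the chi-square per degree of freedom between replicates was 15.7 to 187.

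Efhd1, Mcub and the gene lists were chosen with earlier results of these data known. Areg entered when its identifier was seen under the name Mcub, and its alternatives were chosen after seeing the data. Named genes were Efhd1 and Mcub, list genes past the threshold (at most 4 by size outside the mitochondrial calcium list; markers of cell types by count) and the 5 nearest patterns. In the tables, 12 identifiers carry a name that GENCODE M21 gives to another listed identifier. GENCODE M21 symbols matched 6086 of 6096, 4672 of 4681 and 27131 of 27185 Ensembl identifiers in the wild-type, E-OEX and U-OEx tables, and levels per kb use its exon lengths. Deviations of same-numbered replicates correlated weakly and in both directions between groups compared by a test (r from -0.275 to 0.220). The numbers were therefore not used as pairs in the main fits. LE and GE libraries of the same number within a genotype were not checked, and no test was made between them. A marker of the luminal list, and the sum that holds it, are not reported here.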

Additional observations from a re-analysis of the deposited data

Results flagged for a closer look

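The difference of Efhd1 between the mutant lumens was marked for a closer look, because the test of U-OEx LE against E-OEX LE passed: the fitted log2 value was -3.28 (limma adjusted p = 0.0233). U-OEx LE was at the floor, so this fitted value depends on the pseudocount and is no bound. With U-OEx LE at 3 reads per library and E-OEX LE at its mean, the difference was 5.42-fold. The lower value was in all 3 U-OEx LE libraries, which held 0, 0 and 2 reads, against 10, 7 and 23 in E-OEX LE. The call was lost without E-OEX LE replicate 3 or without any of the 3 U-OEx LE libraries (limma adjusted p from 0.0623 to 0.109). E-OEX LE also served in the contrast that chose Efhd1.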

How the results depend on the processing

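Over 293 alternatives, 270 kept the result and 23 did not, and the cause was not tested. For tested genes, kept meant the same direction and side of the threshold, and for counts a value within 1.5 times. The log2 values of E-OEX LE against WT LE and of GE minus LE have no test here. For them it meant the same direction and a move smaller than the larger group SD on the log2 scale. In E-OEX LE against WT LE the filters and the replicate block leave a gene's log2 value unchanged by design. They count as kept, so the share kept is no measure of robustness. With all libraries kept, DESeq2 called 438 genes in E-OEX LE against WT LE, and Mcub in U-OEx LE against WT LE passed with quantile normalization (-1.56), edgeR (-1.40) and DESeq2 (-1.50). When each library was left out, calls ranged from 58 (without WT LE replicate 3) to 335 in E-OEX LE against WT LE, from 353 (without WT GE replicate 1) to 706 in the glands, and from 51 (without U-OEx LE replicate 1) to 880 in U-OEx LE against E-OEX LE. Calls also moved by over 1.5 times in the first to 127, 81 and 67 without WT LE replicate 2, E-OEX LE replicate 1 and E-OEX LE replicate 2, and in the glands to 424 without WT GE replicate 3. In the last they moved to 299, 316, 335 and 80 without E-OEX LE replicates 2 and 3 and U-OEx LE replicates 2 and 3. In the same leave-one-out fits, log2 fold changes in the glands ranged from -0.018 to 0.45 for Efhd1 and from -1.41 to -0.56 for Areg. Mcub ranged from -1.59 to -0.59 in U-OEx LE against WT LE. Between the mutant lumens Efhd1 ranged from -3.76 to -2.77 and Mcub from -0.016 to 0.96. Left out in turn, libraries moved the GE minus LE difference in wild type to -6.40 to -6.05 (Efhd1), -3.93 to -2.71 (Mcub) and -2.31 to -1.81 (Areg), and in E-OEX to 1.56 to 2.60, -4.06 to -2.80 and 3.18 to 4.13. Efhd1 between the mutant lumens has no value with a minimum mean of 10, which it did not reach.

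The replicate block changed no call of the 3 genes: for Mcub in the glands the adjusted p was 0.00206, and for Efhd1 between the mutant lumens 0.0211. It gave 290, 712, 3004 and 604 calls against 272, 653, 3187 and 594 without it, in the order E-OEX against WT in LE and in GE, U-OEx against WT and U-OEx against E-OEX. Same-numbered libraries of these comparisons correlated from -0.275 to 0.220 in their deviations, and the block rests on a shared number only. Low reads limit Efhd1 and Areg in the mutant lumens and Mcub in E-OEX GE.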
